A study of Petromyzon marinus with 12 samples.

Results

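Sea lamprey embryos carry many gene models that a coding-potential classifier, CPC2, labels noncoding, and the 946 of them with a mean of at least 50 counts over 12 RNA libraries are described here. They were found in the deposited gene annotation by that label and joined to the count table by model identifier. The table holds 22407 models, of which 4694 were labelled noncoding. Of these, 3746 had a mean under 50 counts, and 2 models dominated by ribosomal RNA reads (PM00065 and PMP00050) were left out by rule. All 946 passed the filter on low counts. The minimum is on counts per model, so a short model passed only at a higher level per kilobase than a long one.

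The libraries came from whole embryos of the sea lamprey, Petromyzon marinus, a jawless vertebrate whose somatic cells lose stretches of DNA early in embryonic life. They fell into 6 groups of 2 pools of about 100 embryos: wildtype, KMT1 knockout and KMT5A knockout, each at day 2 and at day 3. Per the labels, embryos were raised at 18 °C, and injected embryos received Cas9 protein with guide RNAs and a fluorescent dextran and were checked for fluorescence at 24 hours. The knockouts are thus injected embryos studied in the same generation and sequenced as pools, so a library averages over embryos that may carry different edits, and whether wildtype embryos were injected too is not stated in the labels. KMT1 enzymes methylate lysine 9 of histone H3, and KMT5A adds 1 methyl group to lysine 20 of histone H4. The labels call the pools biological replicates but do not describe separate clutches, so p-values measure the spread between pools.

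As background, a noncoding RNA acts as RNA and is not translated. Ribosomal RNAs form the core of the ribosome, small nucleolar RNAs (snoRNAs) guide chemical changes on ribosomal RNA, and long noncoding RNAs are spliced transcripts without a long reading frame, some of which exist mainly to carry snoRNAs in their introns. In mammals, mRNAs for ribosomal proteins and many snoRNA-carrying transcripts begin with the same kind of pyrimidine tract. CPC2 scores a transcript by the length and quality of its reading frame, so it can also give the noncoding label to mRNAs of very small proteins.

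Total counts per library ranged from 61886305 to 89061394, and 876 to 930 of the 946 models were above 0 in a library. Levels are given as CPM, counts scaled to a common library size with edgeR's TMM factors, in the usual CPM unit. Of the targets, KMT5A had 197 and 208 CPM in the wildtype pools at day 3 and 74.5 and 84.6 CPM in the KMT5A knockout pools (log2 change -1.35, SE 0.0678, edgeR adjusted p 6.25e-05), while at day 2 it had 373 and 389 against 382 and 367 CPM. SUV39H2, a KMT1 enzyme in mammals that was matched to the label by name only, had 51.6 and 56.1 CPM in wildtype and 32.7 and 36.8 CPM in the KMT1 knockout pools at day 3 (log2 change -0.63, SE 0.0875, edgeR adjusted p 0.00624). At day 2 it had 119.7 and 119.2 CPM in wildtype and 145 and 151 CPM in the KMT1 knockout pools, so the libraries labelled KMT1 knockout at day 2 held no less of it. Of the embryo marker lists, 6 of 12 early patterning genes were found in the annotation and all 6 had a mean of at least 50 counts, with a summed level of 601 to 664 CPM at day 2 and 1016 to 1125 CPM at day 3. Of 8 maternal and oocyte genes 5 were found, all with a mean of at least 50 counts. Their summed level was the highest of the lists, at 1808 to 2046 CPM at day 2 and 1184 to 1474 CPM at day 3. Of 11 markers of differentiated muscle, neuron and blood, 4 were found and 2 had a mean of at least 50 counts, with a summed level of 15.5 to 19.7 CPM at day 2 and 8.68 to 16.7 CPM at day 3. In 2 libraries, KMT1 knockout pool 2 and KMT5A knockout pool 1 at day 3, the 2 excluded ribosomal models took 4.449% and 9.123% of counts, against 0.341 to 0.566% in the other 10.

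The label did not pick out noncoding RNA alone. By their annotation, 419 of the 946 models (44.3%) were nuclear and carried a protein symbol, 304 were of mRNA type without a symbol, 168 were of lnc_RNA type without a symbol, 22 lay on the mitochondrial genome, 16 were snoRNAs, 10 were pseudogenes and 7 were nuclear ribosomal RNAs. A coding sequence was annotated in 734, with a median of 117 codons, against 486 in the 12612 coding-labelled models with a mean of at least 50 counts, and 539 of them exceeded 100 codons. Since CPC2 reads these features, their short length is not a finding independent of the label. Of the 419 models with a protein symbol, 278 exceeded 100 codons. Families among them, counted in models, were 21 cytosolic ribosomal proteins, 13 subunits and assembly factors of cytochrome c oxidase and the cytochrome bc1 complex, 11 mitochondrial ribosomal proteins, 8 NADH dehydrogenase subunits, 7 histones and 6 ATP synthase subunits. Models of a family can share a symbol, as with RPS27, H3C13 and H4-16. Whether a model holds the whole protein of its symbol was not checked, and PM01324-RPL6 has only 51 codons. Functions given below are those of the named protein. Only 248 of the 946 carried a RefSeq gene identifier. These included all 168 of the lnc_RNA type, but 24 of the 419 with a protein symbol and 11 of the 304 of mRNA type without one. Of 164 models whose gene identifier was found in the current RefSeq gene table, RefSeq lists 70 as protein coding, 71 as lncRNA, 16 as snoRNA and 2 as rRNA. This split therefore does not describe the 946 as a whole. Within the lnc_RNA type, 100 were found there, 71 as lncRNA and 28 as protein coding.

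By the source that built them, 356 models came from Pasa_update, 310 from EVM, 213 from RefSeq_Gnomon, 23 from RefSeq_cmsearch, 22 from RefSeq and 22 from maker. These were 59.4%, 43.5%, 21.9%, 6.1%, 78.6% and 7.6% of the noncoding models of each source in the table. None of the 1715 models from RefSeq_tRNAscan-SE reached the minimum, and 1645 of those were listed at 0 in every library. The Pasa_update models, 277 of them with a protein symbol, were long (median 2386.5 exonic bases, 4 exons). The EVM models were short (median 321 exonic bases), and the RefSeq_Gnomon models included all 168 of the lnc_RNA type. All 22 RefSeq models were those of the mitochondrial genome.

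In structure and place the noncoding-labelled models were shorter than coding-labelled ones, with a median of 807.5 against 4444 exonic bases, and 23.6% against 4.7% had a single exon. They also lay more often on unplaced or unlocalized scaffolds, 240 of 946 (25.4%) against 10.6%. In the mRNA type without a symbol, 154 of 304 had a single exon, and 98 of 304 lay within 1000 bases of a coding-labelled model on the same strand. In the lnc_RNA type 11 of 168 did. Exon bases were shared with a coding-labelled model in 120, on the opposite strand in 115. The strand setting of the counting is not given in the sources used here. Reads on the shared bases therefore cannot be assigned with certainty to these 120 models or to their partners. A further source of uncertainty is that 158 models share their symbol with another model.

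Per kilobase of exon, the median level was 7.09 CPM per kb over the 946 models and 4.34 CPM per kb over the coding-labelled ones. Both sets had to reach the same mean count, which is a higher level per kilobase for shorter models. These medians therefore do not compare expression between sets or classes of unlike length. Mitochondrial (160) and nuclear ribosomal RNA models (179) stood highest, snoRNAs had a median of 25.1, models with a protein symbol 12.3, mRNA type without a symbol 5.17, lnc_RNA type 3.0 and pseudogenes 2.79 CPM per kb. Without the 2 libraries rich in ribosomal RNA, the nuclear ribosomal RNA median was 21.4 and the mitochondrial one 135 CPM per kb. Values were above 0 in all 12 libraries for 806 of the models (85.2%), against 79.1% of coding-labelled ones. At the edge of the minimum, PM22511-LHX4 had a mean of 50.4 counts, PM07085 50.8 and PM03046 51.1, while PM13958 had 49.1, PM05089 49.3 and PM06236 49.7.

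The 10 models with the highest mean CPM were a mixed set. PM20146 (chromosome 49, 10247747 to 10264671, plus strand, 8 exons), an unnamed model with 12824 exonic bases and a reading frame of 147 codons, led with a mean of 4700 CPM. Its level was 2645 and 2549 CPM in the wildtype pools at day 2 and 6653 and 6947 CPM at day 3, with no overlap between the days. It shares exon bases with a coding-labelled model on the opposite strand. PM05321-H2AX (chromosome 3, 21289868 to 21292090), a histone variant marked at DNA breaks, followed among the named proteins with a mean of 2762 CPM, then PM18383-SUMO3, a small protein attached to other proteins, with 1860 CPM, PM06239-C19orf53 with 1613 CPM and PM14467-MAP1LC3C, an autophagosome protein, with 1577 CPM. The remaining 5 lay on unplaced scaffold 120: the 18S ribosomal RNA models PM00003 and PM00066 and the unnamed PM00004, PM00062 and PM00068. Per kilobase, PM00004 stood highest at 2964 CPM per kb, and PM20146 had 367 CPM per kb. The 2 libraries rich in ribosomal RNA set the place of PM00004, PM00062 and PM00068. Over the other 10 libraries PM00004 had a mean of 276 CPM (572 CPM per kb), PM00062 of 214 CPM and PM00068 of 290.0 CPM, and they ranked 44, 61 and 39. PM20146 then still ranked highest by mean CPM, at 4132 CPM, and H2AX ranked highest per kilobase, at 1143 CPM per kb.

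Together the 946 models took 4.671 to 5.049% of all counts in the 6 day 2 libraries (median 4.782) and 6.115 to 9.572% in the 6 day 3 libraries (median 6.627). The days did not overlap, and the mean rose by 2.378 percentage points (4.807% ± 0.146 to 7.185% ± 1.318, SD, n = 6 each, two-sided exact permutation p 0.00216, the smallest that 6 against 6 can give, adjusted 0.00315 over 16 sets). Without the 2 libraries rich in ribosomal RNA the difference was 1.614 points (exact permutation p 0.00952). Mitochondrial models contributed 0.187 to 0.222% at day 2 and 0.548 to 0.661% at day 3. Models with a protein symbol contributed 3.084 to 3.386% and 3.544 to 4.312%. This class did not rise as a whole. In wildtype, scaled by library size alone, its 21 ribosomal protein models had a median log2 change of 2.73 from day 2 to day 3. The other 398 had a median of -0.1. The separate shares of these 2 parts were not counted. Nuclear ribosomal RNA overlapped between the days (0.302 to 0.387% and 0.172 to 1.527%, exact permutation p 0.392). In whole embryos, more cells of a type and more RNA per cell cannot be told apart.

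**Figure D1:**
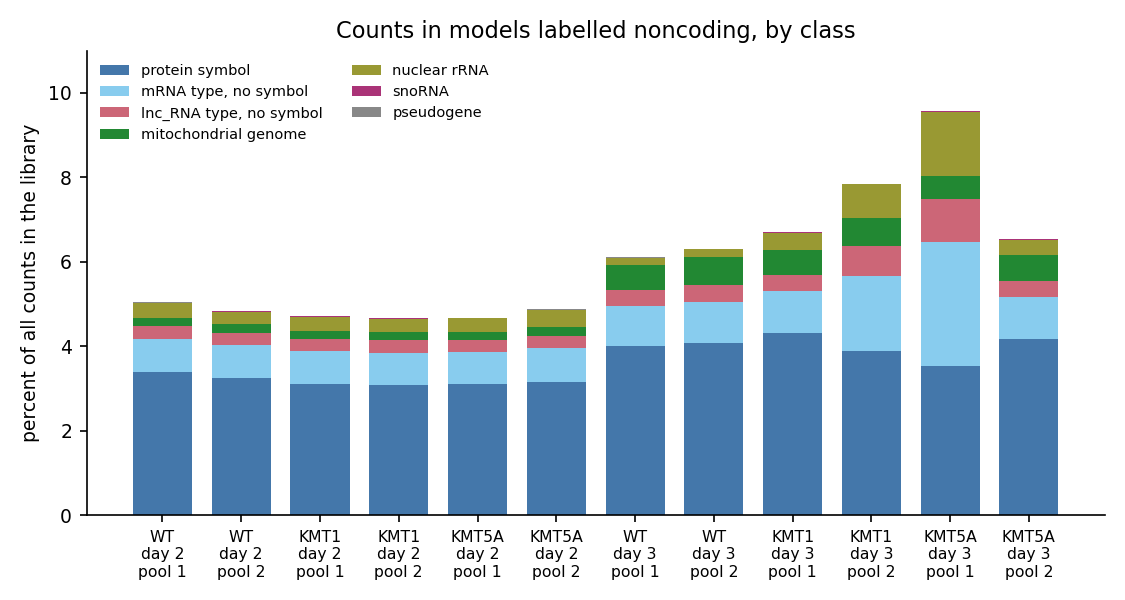
Percent of all counts in each library that fell in the 946 noncoding-labelled models, stacked by class, for 2 pools in each of 6 groups. The day 2 bars reach 4.671 to 5.049% and the day 3 bars 6.115 to 9.572%, and the 2 tallest bars are KMT1 knockout pool 2 and KMT5A knockout pool 1 at day 3.

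The ribosomal RNA excess in those 2 libraries reached 9 models on unplaced scaffold 120 that pass the rule. They took 2.091% of counts in KMT1 knockout pool 2 and 4.395% in KMT5A knockout pool 1 at day 3, against 0.257 to 0.502% elsewhere. The 18S model PM00003 (10277 to 12100 on that scaffold, minus strand) had 1058 and 1181 CPM in wildtype at day 3, 2519 and 5557 CPM in the KMT1 knockout and 11870 and 2240 CPM in the KMT5A knockout. The pools of each knockout thus lay far apart, and the log2 change was 1.85 (SE 0.68, edgeR adjusted p 0.17) and 2.66 (SE 0.7, edgeR adjusted p 0.0794). None of the 9 was called by edgeR at day 3, but in the KMT5A knockout all 9 had an unadjusted p under 0.05 and DESeq2 called all 9 higher, and in the KMT1 knockout the counts were 2 and 2. Leaving out the 2 libraries leaves 1 pool of each knockout at day 3. The median log2 change of the 9 was then 0.26 in the KMT1 knockout and 0.49 in the KMT5A knockout, with all 9 above 0 in each. At day 2, over all 12 libraries, neither tool called any of them in either knockout (0 at an unadjusted p under 0.05 by edgeR). The unnamed PM00068, with a reading frame of 271 codons, went from 308 and 281 CPM in wildtype to 5037 and 13580 CPM in the 2 libraries, but had 332 and 416 CPM in the other pools of the same knockouts. Ribosomal RNA should be scarce in an mRNA library, and what the excess does to other models was not tested beyond leaving these libraries out.

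From day 2 to day 3 in wildtype embryos, the models labelled noncoding rose somewhat more often than they fell. A model was called where edgeR's adjusted p was under 0.05. Of all 15615 genes tested 66.1% were called, 29.0% higher and 37.0% lower at day 3, with a median log2 change of -0.32. Of the 946 models 622 were called (65.8%), 353 higher and 269 lower, with a median of 0.20. Of the coding-labelled models with the same minimum 73.4% were called, 4079 higher and 5179 lower, with a median of -0.32. Scaling by library size alone moved the median of all genes to -0.63, that of the 946 models to -0.11 and the split to 288 higher and 309 lower, so the sign of their median depends on the scaling. Of the 622, 49 were listed at 0 in both pools of a day.

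Described by class, directions varied, and the differences between classes were not tested. Of the 22 mitochondrial models 21 rose, with a median log2 change of 2.01. They include 12 protein genes of the respiratory chain: cytochrome b (PM00025-MT-CYB) went from 372 and 372 CPM to 1566 and 1751 CPM (log2 2.16, SE 0.109, edgeR adjusted p 6.78e-07), and the tRNA model PM00032 for tryptophan went from 0.925 and 0.944 CPM to 5.58 and 6.86 CPM. The exception was PM00027, which joins both mitochondrial ribosomal RNAs and 3 tRNAs, with 100.1 and 86.6 CPM at day 2 and 104 and 119 CPM at day 3 (log2 0.25, SE 0.217, edgeR adjusted p 0.333). Of models with a protein symbol 185 rose and 103 fell, and of the lnc_RNA type 61 rose and 45 fell. The mRNA type without a symbol went the other way, with 69 higher, 117 lower and a median of -0.47. Scaled by library size alone, the counts were 143 higher and 125 lower for models with a symbol (median 0.0), 55 and 50 for the lnc_RNA type and 56 and 130 for the mRNA type without a symbol. Of the 10 pseudogenes 3 rose and 4 fell, and none of the 7 nuclear ribosomal RNAs was called by edgeR over all 12 libraries (0 at an unadjusted p under 0.05, 0 by DESeq2). These 0 counts depend on the libraries fitted: without the 2 rich in ribosomal RNA, edgeR called all 7 nuclear ribosomal RNAs (5 higher, 2 lower), and on the 4 wildtype libraries alone 6 (4 higher, 2 lower).

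**Figure D2:**
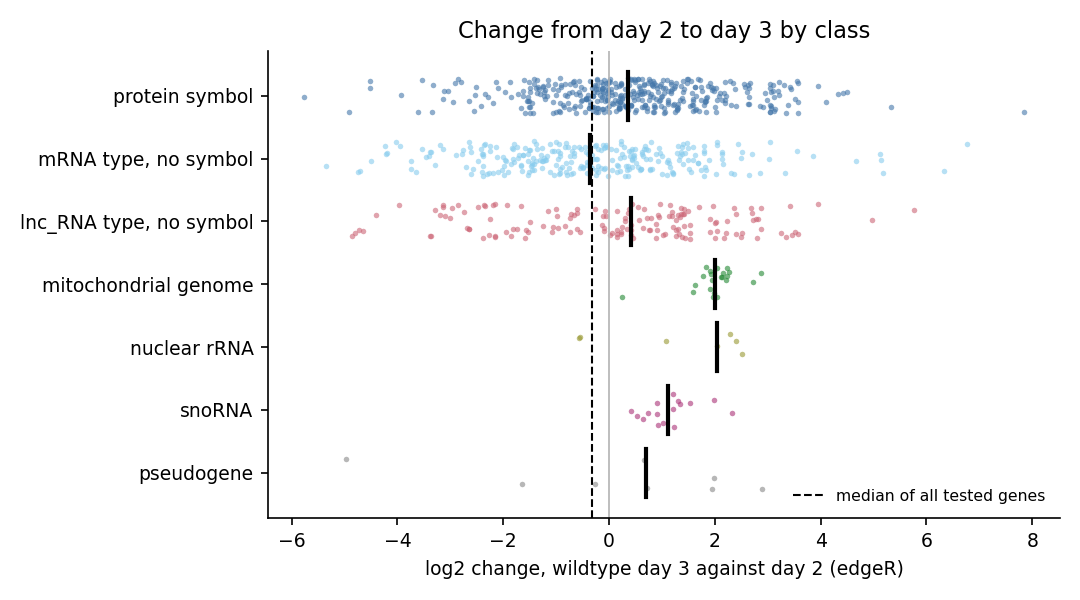
Log2 change from wildtype day 2 to day 3 for each noncoding-labelled model above 0 on both days, by class (points), with the class median (bar) and the median of all tested genes, -0.32 (dashed line). The 22 mitochondrial models cluster around their median of 2.01, and the mRNA type without a symbol has the lowest class median.

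The protein families named among the 419 were mostly on the rising side. These families were grouped from symbols after the members were known. Of all tested genes 29.0% were called higher and 37.0% lower. All 21 ribosomal protein models rose, with a median log2 change of 3.04, as did all 5 Sm and Sm-like proteins of the spliceosome (SNRPD2, SNRPE, SNRPF, SNRPG and LSM7, median 1.47). Of 13 cytochrome oxidase and bc1 proteins 11 rose (median 1.25), of 8 NADH dehydrogenase subunits 7 (median 1.22), and of 5 mitochondrial import proteins 4 (median 1.31). Of 11 mitochondrial ribosomal proteins 6 rose and 2 fell. Of 6 ATP synthase subunits 4 rose and 0 fell. Of 6 general transcription and polymerase proteins 4 rose and 2 fell, and of 5 SUMO and ubiquitin proteins 3 rose and 1 fell. Of 3 anaphase complex proteins 0 rose and 1 fell. Histones were mixed: H2AX and PM15429-H3-3B, a replacement histone H3, rose from means of 2064 to 3527 CPM and 680 to 1820 CPM, and the H3 models PM12135-H3Y2 and PM14855-H3C13 fell from 136 to 43.0 CPM and from 31.8 to 17.8 CPM.

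Among models above 0 in all 4 wildtype libraries, those that rose most were the lnc_RNA PM07715 (chromosome 8, 11305726 to 11317410), PM05709-PPBP, PM22038, PM07469 and the lnc_RNA PM20078. PM07715 had 0.584 and 0.745 CPM at day 2 and 35.7 and 37.2 CPM at day 3 (log2 5.77, SE 0.239, edgeR adjusted p 2.41e-07). All 6 day 3 libraries, knockouts included, had 31.5 to 39.2 CPM of it. PM22038 went from 0.881 and 0.854 CPM to 30.5 and 32.4 CPM (log2 5.18). PPBP, named for a platelet chemokine, went from 0.584 and 0.417 CPM to 16.9 and 23.6 CPM and was listed at 0 in all 4 knockout libraries at day 2. The models that fell most were PM23245-GPT2, PM15871, the pseudogene PMP00020, PM24589 and the lnc_RNA PM25191. GPT2, an alanine aminotransferase, went from 23.8 and 29.6 CPM to 0.353 and 0.633 CPM (log2 -5.76, SE 0.466, edgeR adjusted p 1.09e-05). PMP00020 had 56.8 and 57.9 CPM at day 2 and 1.86 and 1.80 CPM at day 3 (log2 -4.97), and PM15871 75.2 and 79.9 against 2.28 and 1.54 CPM (log2 -5.34).

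Other models were listed at 0 in both wildtype pools of a day, which in this table can be a failed estimate, so no fold is given. PM05384 (3.45 and 4.36 CPM at day 3), PM21759-NPY, a neuropeptide precursor (2.15 and 3.21 CPM), and the lnc_RNA PM03527 (2.47 and 2.66 CPM) were listed at 0 at day 2. The lnc_RNA PM16466 (28.1 and 25.9 CPM at day 2) and PM18074 (18.4 and 15.8 CPM) were listed at 0 at day 3. So was PM20811-SRSF3, a splicing factor, which had 695 CPM in the first and 58.7 CPM in the second wildtype pool at day 2 and 1528 to 1822 CPM in all 4 knockout libraries at day 3. Its symbol is shared by 4 models and it overlaps a coding-labelled model on the opposite strand, so its level is uncertain.

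Of the 20 snoRNA models counted, 16 reached the minimum, and 14 of those lie within an intron of a lnc_RNA model on the same strand that is itself among the 946. No base of the 14 falls in an exon of the enclosing model. There are 6 such enclosing models, here called hosts, and RefSeq lists 5 of them as lncRNA. PM04917 (chromosome 3, 7107707 to 7113820, plus strand, 5 exons) holds 4 copies of the SNORA73 family, and PM11093 (chromosome 19, 1929358 to 1937728, minus strand, 7 exons) holds 3 copies of SNORA57. PM11363 (chromosome 20, 270343 to 277144, minus strand, 7 exons) holds SNORA79 and a pair of the SNORA3/SNORA45 family. PM13055 (chromosome 25, 3532855 to 3538242, minus strand, 11 exons) holds SNORD31 and SNORD22, which in human lie in introns of the noncoding host gene SNHG1. PM08213 (chromosome 10, 643738 to 646763, minus strand, 7 exons) holds a snoRNA of the snR60/Z15 family, and PM19939 (chromosome 48, 10617007 to 10620208, minus strand, 2 exons) holds U6-53/MBII-28. The other 2, both SNORD100 (PM04727 and PM04728), have no enclosing model, and the nearest is the coding-labelled MTFR1L.

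Most host transcripts rose between the days, and so did most of the snoRNAs. Of all tested genes 29.0% were called higher at day 3 in wildtype. Of the 162 lnc_RNA models without a snoRNA model, 56 were called higher and 44 lower. In wildtype, PM11363 had 62.1 and 65.1 CPM at day 2 and 239 and 235 CPM at day 3 (log2 1.90, SE 0.055, edgeR adjusted p 4.08e-08). PM04917 had 29.1 and 28.2 against 82.5 and 82.7 CPM (log2 1.53), PM11093 38.02 and 37.9 against 98.6 and 103 CPM (log2 1.41), PM08213 60.6 and 58.9 against 155 and 158 CPM (log2 1.39) and PM13055 115 and 114 against 244 and 283 CPM (log2 1.21). These 5 rose, and PM19939 fell, from 62.6 and 62.1 to 39.1 and 43.3 CPM (log2 -0.60, SE 0.093, edgeR adjusted p 0.000564). Of the 16 snoRNA models 14 rose, with a median log2 change of 1.12, and 11 did under scaling by library size alone. The largest changes were those of the SNORD100 pair, at 2.32 and 1.99. The copies of 1 host were not equal: the SNORA73 model PM04920 had 9.77 and 10.7 CPM at day 2 and PM04918 1.80 and 2.39 CPM. The 2 that were not called were U6-53/MBII-28 (PM19940, log2 0.42), whose host fell, and the SNORA57 copy PM11096 (log2 0.53). Reads from an unspliced host and from its snoRNA cannot be told apart in these counts.

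At day 2 both knockouts had lower levels of the hosts than wildtype. In the KMT1 knockout 5 of the 6 hosts fell, with a median log2 change of -0.44 over the 6, and in the KMT5A knockout 5 of the 6 fell, with a median of -0.38. Of all tested genes 6.79% and 6.43% were called lower, with medians of -0.02 and -0.03. PM08213 had 60.6 and 58.9 CPM in wildtype, 43.1 and 42.4 CPM in the KMT1 knockout and 46.3 and 45.0 CPM in the KMT5A knockout (log2 -0.48 and -0.39, SE 0.041 each, edgeR adjusted p 0.000512 and 0.00122). PM11363 had 46.9 and 42.1 CPM in the KMT1 knockout and 43.7 and 45.5 CPM in the KMT5A knockout (log2 -0.52 and -0.51, SE 0.054 each, edgeR adjusted p 0.00108 and 0.00119). PM19939 averaged 40.2 ± 0.322 CPM (SD, n = 2) with the KMT1 knockout and had 42.7 and 44.0 CPM with the KMT5A knockout (log2 -0.63 and -0.52, SE 0.093 each, edgeR adjusted p 0.00504 and 0.0122). PM13055 missed the threshold in both, at 115 and 114 CPM in wildtype against 95.0 and 91.4 CPM (log2 -0.29, SE 0.077, edgeR adjusted p 0.0559) and 95.7 and 94.7 CPM (log2 -0.26, SE 0.077, edgeR adjusted p 0.0867). For every host, both wildtype pools lay above all 4 knockout pools. The share of all tested genes with that order was not counted. The 2 comparisons share the wildtype pools, so they are not independent of each other. Scaled by library size alone none of the 6 was called, with medians of -0.38 and -0.31.

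At day 3 no host was called lower in either knockout by edgeR. Their median log2 change was 0.02 in the KMT1 knockout, where 1 host, PM08213, was higher (155 and 158 CPM in wildtype against 183 and 179 CPM, log2 0.21, edgeR adjusted p 0.0222), and 0.01 in the KMT5A knockout, where edgeR called none (1 at an unadjusted p under 0.05) and DESeq2 called 1 higher. Over all 946 models the change of the effect from day 2 to day 3 was called for 85 (75 upward) in the KMT1 knockout and 86 (71 upward) in the KMT5A knockout, against 10.2% of all tested genes (7.3% upward, 2.91% downward) and 9.65% (6.47% upward, 3.18% downward). Scaled by library size alone these were 8 (4 upward) and 10 (3 upward). Among the hosts it was called for 4 of 6 hosts in the KMT1 knockout and for 2 of 6 in the KMT5A knockout, all upward (medians 0.39 and 0.40). Scaled by library size alone it was called for none of the 6 in either (2 and 0 at an unadjusted p under 0.05, medians 0.26 and 0.17), and by DESeq2 for 5 and 6. PM08213 and PM11363 were called in both. The snoRNAs had median log2 changes of -0.34 and -0.30 at day 2. Of the 16, SNORA79 (PM11364) alone was called by edgeR, with 2.14 and 2.13 CPM in wildtype and 1.28 and 1.20 CPM in the KMT1 knockout (log2 -0.78, SE 0.201, edgeR adjusted p 0.0498). That call was lost with DESeq2's size factors, with scaling by library size alone, with the replicate block, with no filter on low counts, on the compared libraries alone and without the 2 libraries rich in ribosomal RNA (0 of 16 each), while DESeq2 called 2 of the 16 lower. In the KMT5A knockout none was called (3 at an unadjusted p under 0.05, 2 by DESeq2).

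Many of the 21 ribosomal protein models, a list drawn up after their names were seen, also fell in the knockouts. At day 2, 19 of 21 fell in the KMT1 knockout (median log2 -0.73) and 20 of 21 in the KMT5A knockout (median -0.63). Of all tested genes 6.79% and 6.43% were called lower. PM18769-RPS20, of the small subunit, had 170 and 158 CPM in wildtype, 95.9 and 91.8 CPM in the KMT1 knockout and 103 and 94.8 CPM in the KMT5A knockout (log2 -0.81 and -0.73, SE 0.073 each, edgeR adjusted p 0.00063 and 0.000971). PM05528-RPL23, of the large subunit, had 106 and 110 CPM in wildtype, 65.7 and 63.6 CPM and 67.3 and 62.9 CPM (log2 -0.74 and -0.73). PM03363-RPS14 had 101 and 86.5 CPM, 53.9 and 48.5 CPM and 50.3 and 49.3 CPM (log2 -0.87 and -0.91). The wildtype pools of these 3, picked after their values were seen, lay above all knockout pools. The share of all tested genes with that order was not counted. PM13395-RPS27, a single-exon model at 0.617 and 0.437 CPM in wildtype whose symbol is shared with PM17825-RPS27, was called in neither, and PM10629-RPS29 only in the KMT5A knockout.

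At day 3, 1 of 21 was called in the KMT1 knockout, PM03818-RPS26, at 619 and 646 CPM in wildtype against 555 and 529 CPM (log2 -0.22, SE 0.048, edgeR adjusted p 0.0347). DESeq2 also called 1 of 21, but no call was left under edgeR with DESeq2's size factors, with scaling by library size alone, with the replicate block or on the compared libraries alone. None was called in the KMT5A knockout by edgeR (1 at an unadjusted p under 0.05) or by DESeq2. Leaving out the 2 libraries rich in ribosomal RNA leaves 1 KMT5A knockout pool at day 3. The median log2 change in that knockout was then -0.13, with 20 of 21 below 0. Over all 12 libraries the medians were -0.07 and -0.04, and of all tested genes 6.26% and 5.3% were called at day 3. The effects differed between days for 16 of 21 in each knockout, against 10.2% and 9.65% of all tested genes. Of the 60 ribosomal protein models with the coding label, 57 fell at day 2 in each knockout (medians -0.72 and -0.68), and 58 were higher at the later day in wildtype (median 3.01). Without the 2 libraries rich in ribosomal RNA, the day 2 counts for the 21 were 19 and 20 and for the 6 hosts 6 and 5. Scaled by library size alone, 15 of 21 fell in each knockout at day 2, and none differed between days.

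**Figure D3:**
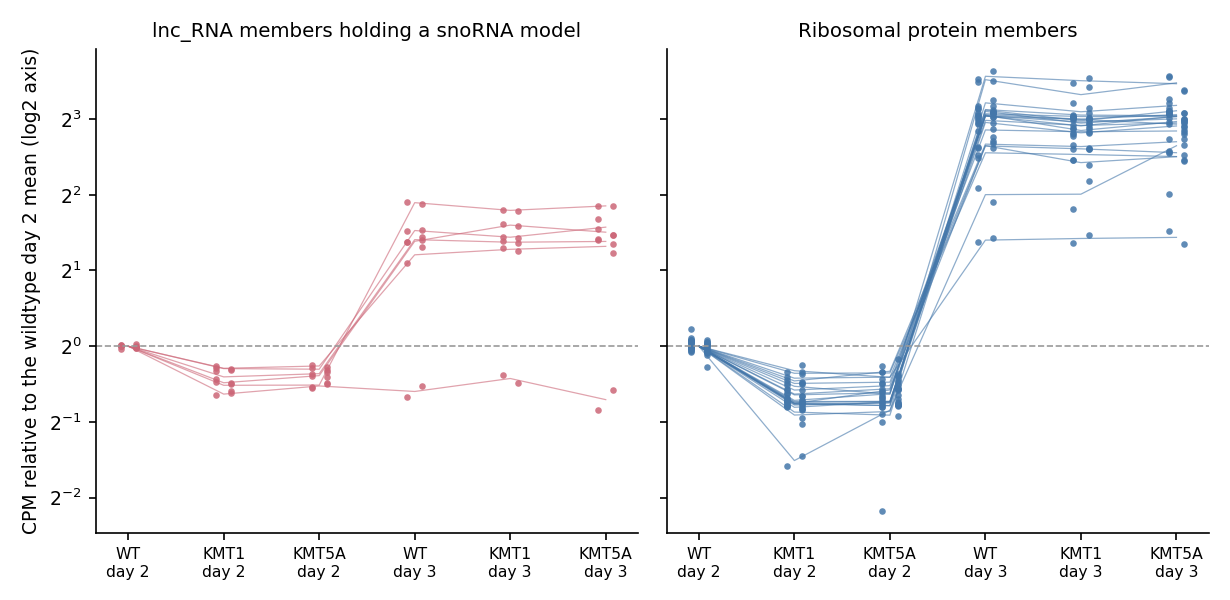
Level of the 6 lnc_RNA models that hold snoRNAs (left) and of the 21 ribosomal protein models (right) in each pool, relative to the wildtype day 2 mean, on a log2 axis (points, pools; lines, group means). Both sets lie below wildtype in the knockouts at day 2 and near the wildtype level of that day at day 3, and 1 host, PM19939, is lower at day 3 than at day 2.

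Over all 946 models, a smaller share than of all tested genes was called in the knockouts at day 2, and most of the calls were lower. In the KMT1 knockout 67 were called (7.08%), 8 higher and 59 lower, against 9.97% of all tested genes (3.18% higher, 6.79% lower). In the KMT5A knockout 75 were called (7.93%), 9 higher and 66 lower, against 9.07% (2.64% higher, 6.43% lower). The tested genes did not all have to reach a mean of 50 counts. Of the coding-labelled models that did, 11.7% (KMT1) and 10.5% (KMT5A) were called. Median log2 changes of the 946 models were -0.09 and -0.10. By source, 12.4% of Pasa_update models were called in each knockout. That was above the share of all genes but closer to that of the coding-labelled models. For EVM models the share called was 1.29% (KMT1) and 3.55% (KMT5A), and for RefSeq_Gnomon models 8.45% and 9.39%. For RefSeq_cmsearch models it was 4.35% and 0%, and edgeR called no maker or RefSeq model in either. Fitted on the 4 compared libraries alone, all tested genes leaned the other way, with 1406 higher and 1116 lower in the KMT1 knockout and 1080 and 911 in the KMT5A knockout, while the 946 models had 25 higher and 71 lower and 18 and 69. Leaving out any 1 compared pool left 37 to 43 calls in the KMT1 knockout and 36 to 51 in the KMT5A knockout, and scaling by library size alone left 27 and 30. Models with a protein symbol made up most of the calls, with 6 higher and 43 lower in the KMT1 knockout and 6 and 49 in the KMT5A knockout, of which 19 and 20 lower were the ribosomal proteins. Of 304 of the mRNA type without a symbol only 4 and 5 were called. Their median of mean counts was 188.2, against 1103.8 for models with a protein symbol. Changes are harder to call at lower counts, so the classes' numbers of calls do not compare their responses. None of the 22 mitochondrial models was called in either knockout by edgeR (0 at an unadjusted p under 0.05, 0 by DESeq2).

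Of the lnc_RNA type, 12 of 168 fell and 1 rose in the KMT1 knockout, and 13 fell and 2 rose in the KMT5A knockout. That is 7.74% and 8.93% called, against 9.97% and 9.07% of all tested genes (6.79% and 6.43% lower). Of the 162 without a snoRNA model, 7 fell and 1 rose in the KMT1 knockout, and 8 fell and 2 rose in the KMT5A knockout. The models described next are single examples and do not show a response of the class. Among those without a snoRNA model, PM20236 (chromosome 50, 3418085 to 3423116, minus strand) had 16.1 and 15.1 CPM in wildtype, 8.04 and 7.37 CPM in the KMT1 knockout and 8.92 and 9.60 CPM in the KMT5A knockout (log2 -1.02 and -0.75, SE 0.113 each, edgeR adjusted p 0.00143 and 0.00586). At day 3 its log2 changes were 0.06 and 0.21. The lnc_RNA models PM04092, PM23762, PM19520 and PM00364, singled out for their level after their values were seen, also fell in both knockouts. PM04092 had 141 and 137 CPM in wildtype, 79.3 and 81.5 CPM and 82.8 and 88.5 CPM in the KMT1 and KMT5A knockouts (log2 -0.79 and -0.70). PM23762 had 28.0 and 30.8 CPM, 16.8 and 14.7 CPM and 16.0 and 14.6 CPM (log2 -0.90 and -0.94). PM13984 (chromosome 27, 12723283 to 12742684, minus strand, 6 exons, listed by RefSeq as lncRNA) was listed at 0 in both wildtype pools and had 1.31 to 1.82 CPM in all 4 knockout pools (edgeR adjusted p 0.000302 and 0.000264). At day 3 it had 1.79 and 2.69 CPM in wildtype, 5.22 and 6.20 CPM in the KMT1 knockout and 4.54 and 5.86 CPM in the KMT5A knockout (log2 1.35 and 1.21, edgeR adjusted p 0.0532 and 0.0804).

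Among the models that rose most at day 2, PM18675, unnamed (chromosome 43, 8612687 to 8619836), had 6.39 and 7.40 CPM in wildtype, 12.4 and 13.8 CPM in the KMT1 knockout and 10.4 and 11.1 CPM in the KMT5A knockout (log2 0.92 and 0.64). PM13219-MTURN, a regulator of neural progenitor differentiation in frog, had 52.8 and 53.7 CPM, 78.3 and 83.8 CPM and 78.7 and 83.7 CPM (log2 0.61 in both). PM21591-TMEM167B and PM09752-TUSC2 were also named for the KMT1 knockout (log2 0.63 and 0.43), and PM11878-CEP19, a centrosomal protein, and a second TUSC2 model, PM18179, for the KMT5A knockout (log2 0.69 and 0.59). PM19456-INKA2, an inhibitor of the PAK4 kinase, was called higher in both knockouts on both days, as no other of the 946 was, although the comparisons of a day share their wildtype pools. How many of all tested genes were called alike in both knockouts on both days was not counted. At day 2 INKA2 had 55.2 and 59.3 CPM in wildtype, 92.4 and 97.9 CPM in the KMT1 knockout and 93.0 and 98.4 CPM in the KMT5A knockout (log2 0.73 and 0.74, SE 0.081 each, edgeR adjusted p 0.00141 each). At day 3 it had 29.6 and 33.9 CPM in wildtype, 51.0 and 55.4 CPM and 49.1 and 48.9 CPM in the knockouts (log2 0.75 and 0.63, SE 0.081 each, edgeR adjusted p 0.0024 and 0.00516). On both days the wildtype pools lay below all knockout pools, which at day 2 a rule for naming required. The share of all tested genes with that order was not counted.

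Among the models that fell most in the KMT1 knockout at day 2, PM10074-ID2, an inhibitor of basic helix-loop-helix transcription factors, had 41.9 and 41.8 CPM in wildtype but 19.5 and 20.4 CPM with the knockout (log2 -1.07, SE 0.097, edgeR adjusted p 0.000623), with 22.4 and 25.2 CPM in the KMT5A knockout (log2 -0.81, SE 0.096, edgeR adjusted p 0.00207). It was also lower in the KMT1 knockout at day 3, at 225 and 262 CPM against 367 and 368 CPM (log2 -0.59, SE 0.095, edgeR adjusted p 0.0117). PM22084-C5orf63 had 2.09 and 1.23 CPM in wildtype but 0.395 and 0.407 CPM after the knockout (log2 -2.05), PM25004-OST4, a subunit of the oligosaccharyltransferase, 1.73 and 1.69 against 0.675 and 0.916 CPM (log2 -1.10), and PM10432, a NADH dehydrogenase subunit, 4.19 and 3.94 against 1.84 and 2.45 CPM (log2 -0.92). In the KMT5A knockout the models named were PM11646 and PM11645 on chromosome 21, PM14417-TOMM5, a mitochondrial import subunit (0.529 and 0.666 against 0.204 and 0.258 CPM, log2 -1.36), PM23986-SDHAF4, an assembly factor of succinate dehydrogenase (1.10 and 1.13 against 0.535 and 0.446 CPM, log2 -1.18), and PM10440-MRPL30 (5.09 and 4.90 against 2.04 and 2.37 CPM, log2 -1.18). Of these, C5orf63, PM10432, TOMM5, SDHAF4 and MRPL30 share exon bases with a coding-labelled model on the opposite strand, as do CEP19 and PM18179. PM17520-NPPC, a natriuretic peptide precursor, had 0.892 and 1.12 CPM in wildtype and was listed at 0 in both KMT5A knockout pools.

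**Figure D4:**
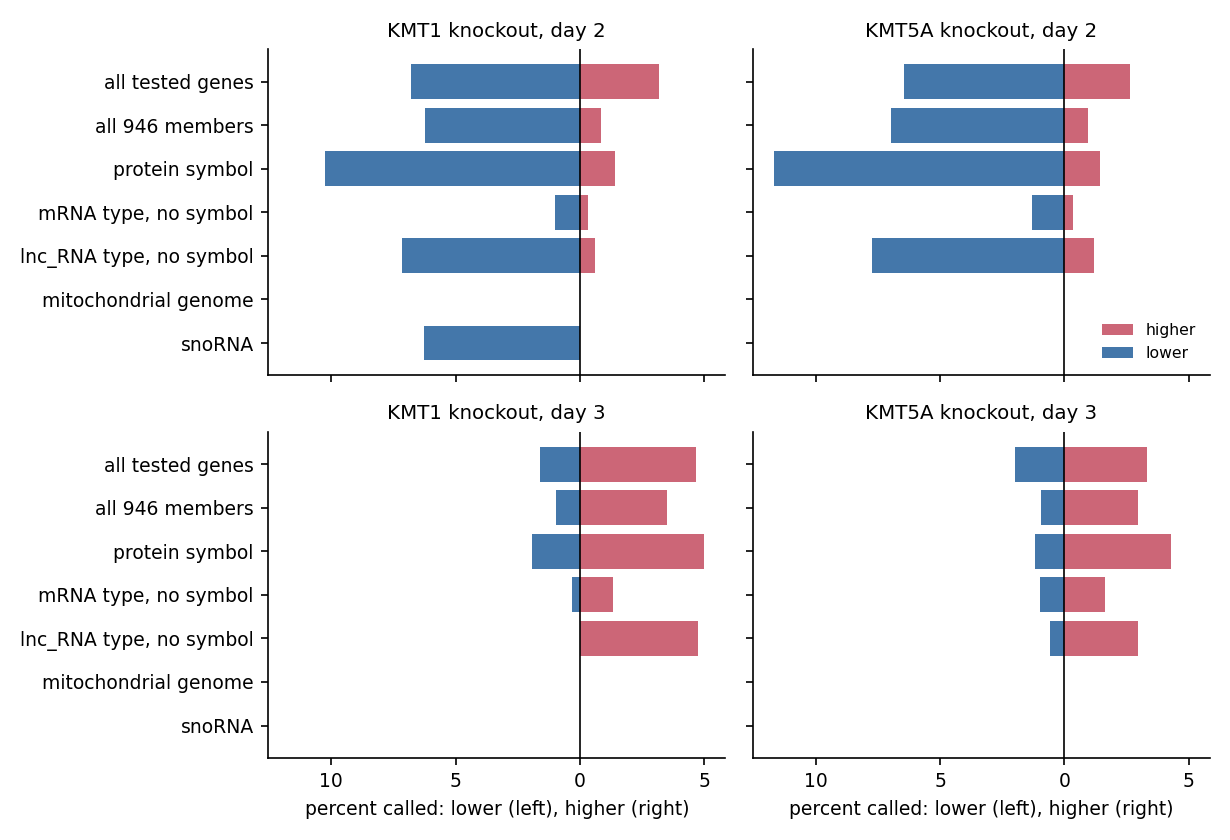
Percent of models called by edgeR as lower (blue, left) and higher (red, right) in each knockout against wildtype on each day, for all 15615 tested genes, all 946 noncoding-labelled models and 5 classes. At day 2 the bars lean left and at day 3 right, and the mitochondrial class has no edgeR call in any panel (DESeq2 called 1 mitochondrial model higher in each knockout at day 3).

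At day 3 the direction of the calls was the other way. In the KMT1 knockout 42 of 946 were called (4.44%), 33 higher and 9 lower, against 6.26% of all tested genes (4.67% higher, 1.59% lower). In the KMT5A knockout 37 were called (3.91%), 28 higher and 9 lower, against 5.3% (3.33% higher, 1.97% lower). Of the coding-labelled models with the same minimum, 7.27% (KMT1) and 6.12% (KMT5A) were called. The counts for the 946 models rest on the shared model: fitted on the 4 compared libraries alone, 1 was called in each. Where libraries are left out, a group with 1 pool takes its spread from the other groups. Without the 2 libraries rich in ribosomal RNA 109 and 59 were called, and scaled by library size alone 12 (10 higher) and 13 (6 higher). Leaving out 1 compared pool gave 23 to 64 and 19 to 103, the 103 without KMT5A knockout pool 2.

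Of the 168 lnc_RNA models, 8 were called in the KMT1 knockout at day 3 (4.76%), all higher. In the KMT5A knockout 6 were called (3.57%), 5 of them higher. Of all tested genes 4.67% and 3.33% were called higher and 1.59% and 1.97% lower. PM12228 (chromosome 22, 8066608 to 8082685, plus strand, listed by RefSeq as lncRNA) had 20.03 and 23.0 CPM in wildtype, 42.4 and 40.1 CPM in the KMT1 knockout and 28.4 and 28.2 CPM in the KMT5A knockout (log2 0.94 and 0.40, SE 0.069 each, edgeR adjusted p 0.00048 and 0.0174). It had fallen from 147 and 141 CPM in wildtype at day 2. PM03877 (chromosome 2, 6653606 to 6672587) had 1.10 and 0.860 CPM in wildtype, 1.65 and 1.87 CPM and 1.95 and 2.14 CPM in the knockouts (log2 0.85 and 1.06, edgeR adjusted p 0.0478 and 0.0233). Unnamed PM03494 had 1.70 and 1.36 CPM in wildtype, 3.80 and 2.75 CPM and 4.58 and 4.25 CPM (log2 1.10 and 1.53, edgeR adjusted p 0.0122 and 0.00313), and GPT2 0.353 and 0.633 CPM, 2.56 and 1.09 CPM and 1.86 and 1.62 CPM (log2 1.90 and 1.82). PM05158-NMU, a neuropeptide precursor (0.611 and 0.633 against 1.83 and 2.09 CPM, log2 1.65), and PM17389 (0.883 and 0.779 against 2.03 and 1.87 CPM, log2 1.23) were named for the KMT1 knockout. PM20595 (0.475 and 0.519 against 1.54 and 2.61 CPM, log2 2.06) and PM19552 (1.45 and 1.56 against 4.88 and 7.12 CPM, log2 1.99) were named for the KMT5A knockout. Listed at 0 in both wildtype pools were SRSF3 and PM17456 for both knockouts, PM00873, named for a ZBTB17 domain, for the KMT1 knockout and PM06839-HES5, a repressor in Notch signalling, for the KMT5A knockout, all but SRSF3 at 0.590 to 1.55 CPM in the pools of the knockout they are named for. HES5 was called in the KMT1 knockout too (edgeR adjusted p 0.00115).

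Models that fell in the KMT1 knockout at day 3, besides ID2, were PM10976-DIAPH3, a formin that builds actin filaments (3.35 and 2.69 against 1.21 and 1.44 CPM, log2 -1.19, SE 0.223, edgeR adjusted p 0.0209), PM23485 (9.07 and 8.39 against 4.07 and 4.80 CPM, log2 -0.98), PM23685-SVIP (4.82 and 4.31 against 2.83 and 2.29 CPM, log2 -0.83) and PM15036-NANP, a phosphatase of sialic acid synthesis (184 and 175 against 98.9 and 128 CPM, log2 -0.66). NANP shares exon bases with a coding-labelled model on the opposite strand. In each of them the pools of the 2 groups did not overlap, which the rule for naming required.

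The 5 models named as falling in the KMT5A knockout at day 3 all lie on chromosome 21, which carries KMT5A (11963808 to 11985404, minus strand). Of 18 models on that chromosome, 5 were lower and none higher, with a median log2 change of -0.60, while among the 928 elsewhere 4 were lower and 28 higher, with a median of 0.02. That genes on chromosome 21 can be lower in this knockout had been seen in these data before, so the members add no independent support. The coding-labelled models of the chromosome are not described here, and no statement is made about the chromosome as a whole. In the KMT1 knockout at day 3 edgeR called none of the 18 (4 at an unadjusted p under 0.05, median 0.03), and DESeq2 called 2 higher and 1 lower. At day 2 the KMT5A knockout had 5 of the 18 lower and 1, CEP19, higher (median -0.62), and the KMT1 knockout had 1 lower, COPS9.

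The 5 lie 3.81 to 10.2 Mb from the KMT5A start (11985404, as the gene is on the minus strand), at lower coordinates. PM11645 (chromosome 21, 1784800 to 1787404) had 45.4 and 38.7 CPM in wildtype, 38.0 and 42.0 CPM in the KMT1 knockout and 25.0 and 20.9 CPM in the KMT5A knockout at day 3 (log2 -0.87 in the KMT5A knockout, SE 0.123, edgeR adjusted p 0.00763). PM11653-COPS9, a subunit of the COP9 signalosome, had 14.0 and 14.4, 15.2 and 16.4, and 7.01 and 8.14 CPM (log2 -0.91, SE 0.163, edgeR adjusted p 0.0202). PM11659-NDUFA1 had 33.1 and 37.5, 28.4 and 29.8, and 22.8 and 17.3 CPM (log2 -0.82, SE 0.138, edgeR adjusted p 0.0157). The lnc_RNA PM11712 (3327509 to 3366578, plus strand, 7 exons) had 27.7 and 27.6, 31.3 and 34.7, and 20.01 and 17.2 CPM (log2 -0.57, SE 0.095, edgeR adjusted p 0.0143). PM11861-GVQW3 had 99.6 and 118, 112 and 114, and 63.9 and 62.2 CPM (log2 -0.78, SE 0.071, edgeR adjusted p 0.000831). In all 5 the KMT5A knockout pools also lay below both KMT1 knockout pools of day 3. Their separation from the wildtype pools was required by the rule for naming. The share of all tested genes with this order was not counted. PM12005-TMEM167A and PM12006, 1.05 and 1.06 Mb from the KMT5A start at higher coordinates, had log2 changes of 0.36 (edgeR adjusted p 0.554) and 0.02. They are the only ones of the 18 at higher coordinates than KMT5A, so the 2 sides of KMT5A cannot be compared. Of the 5, PM11645, COPS9, PM11712 and GVQW3 were also lower at day 2, by log2 changes of -1.35, -0.98, -0.49 and -0.79, and NDUFA1 was not called (log2 -0.08). Fitted on the 4 compared libraries alone, none of the 18 was called at day 3.

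**Figure D5:**
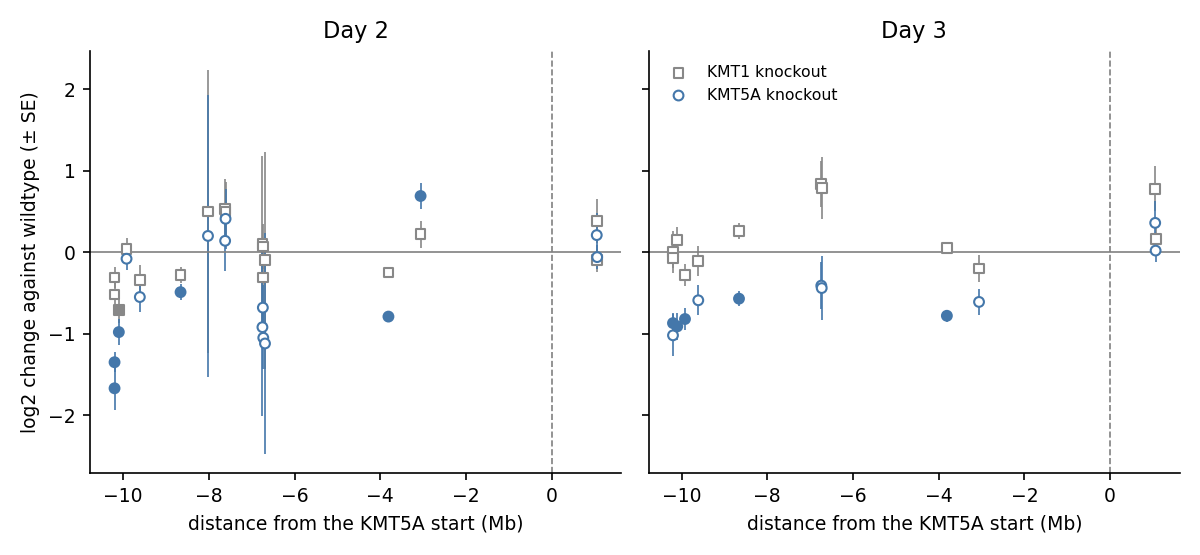
Log2 change against wildtype, with its SE, for the chromosome 21 models above 0 in all 6 libraries of the day (17 at day 2, 12 at day 3), by distance from the KMT5A start in Mb. Filled symbols were called. Distances are negative at coordinates lower than the start. At day 3 every filled symbol belongs to the KMT5A knockout and lies 3.81 to 10.2 Mb from the KMT5A start, at lower coordinates. Only PM12005-TMEM167A and PM12006 lie at higher coordinates, so most models could only fall on the lower side.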

How the data were processed

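Estimated counts per gene model for 12 libraries were used as deposited by the authors; per the submitters' processing notes the tools were HISAT2 2.2.1, StringTie 2.2.3 and DESeq2 1.42.1, with no role given. All values were whole, so none was rounded. The aligned genome build, the counting strand and the assembly of the annotation are not given in the sources used here, and coordinates follow the deposited annotation file. Total counts per library were 61886305 to 89061394. An estimate of exactly 0 may be a failed one.

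The members and lists were chosen with earlier results of these data known, and classes and families were defined from the annotation after it was seen. Counts were tested in edgeR 4.0.16 (limma 3.58.1, R 4.3.3; TMM scaling, filterByExpr, quasi-likelihood F test) with 1 model over all 12 libraries, and p-values were adjusted by Benjamini-Hochberg over 15615 genes, the call threshold being 0.05. Residual degrees of freedom were 6. CPM values are counts scaled by the TMM-corrected library size. The share of counts was tested by an exact permutation test in SciPy 1.17.1. DESeq2 1.42.0 was an alternative.

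Named models were the 10 with the highest mean CPM; per comparison up to 5 in each direction with the largest change among called models above 0 in all 4 libraries, whose groups do not overlap and whose higher group has a mean of at least 50 counts; up to 3 per direction listed at 0 in 1 group; for each difference between days the 2 most positive and negative; 3 on each side of the minimum; and any called alike in both knockouts on both days. Hosts, snoRNAs, ribosomal proteins, histones and mitochondrial models were described as sets, and their examples were chosen after their values were seen. RefSeq biotypes were matched by gene identifier to the RefSeq gene table of assembly UKy_Petmar_22M1.pri1.0. No sequence is printed, since none was given.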

Additional observations from a re-analysis of the deposited data

Results flagged for a closer look

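Knockout effects at day 3 were unlike those at day 2 for 85 of the 946 models in the KMT1 knockout and for 86 in the KMT5A knockout, by edgeR's test of the difference itself (adjusted p under 0.05), against 10.2% and 9.65% of all tested genes. Of these, 75 and 71 went upward from day 2 to day 3. Scaled by library size alone 8 (4 upward) and 10 (3 upward) were called, so both the count and its direction depend on the scaling.

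In the KMT1 knockout, the models above 0 in all 8 libraries with the most positive difference in log2 effect were PM05158-NMU (2.0) and PM02891-SYF2 (1.34), a splicing factor, and those with the most negative were PM10976-DIAPH3 (-1.58) and PM23485 (-1.32). In the KMT5A knockout they were PM23986-SDHAF4 (1.67) and PM03494 (1.66), and PM17263-C22orf39 (-1.61) and PM11878-CEP19 (-1.3).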

How the results depend on the processing

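The rise of the share of counts from day 2 to day 3 kept its direction and its side of the threshold under every alternative run (1.484 to 4.389 percentage points, and 1.901 to 2.592 leaving out 1 library). The count of models called between the days in wildtype, 622, was 546 to 568 without 1 pool. The knockout counts moved more, and the cause was not tested. Scaling by library size alone gave 27 (KMT1) and 30 (KMT5A) calls at day 2, 12 and 13 at day 3, and 8 and 10 for the difference between days. DESeq2 gave 109 and 119, 129 and 129, and 161 and 188. The compared libraries alone gave 1 and 1 at day 3, and at day 2 96 (25 higher, 71 lower) and 87 (18 and 69). Genes above 0 in all 12 libraries gave 56 for the KMT5A knockout at day 3. Without both libraries rich in ribosomal RNA, an alternative added after the data were seen, 109 and 59 were called at day 3 and 154 for the KMT1 difference between days.

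Leaving out 1 pool, counts at day 2 were 37 to 43 (KMT1) and 36 to 51 (KMT5A), at day 3 23 to 64 and 19 to 103, and for the difference between days 36 to 90 and 38 to 135. The KMT1 day 2 count fell to 37 without wildtype pool 1, 43 without wildtype pool 2, and 37 and 40 without knockout pools 1 and 2. The KMT5A day 2 count fell to 38 and 45 without wildtype pools 1 and 2 and to 36 without knockout pool 2. At day 3 the counts without wildtype pools 1 and 2 were 26 and 23 (KMT1) and 19 and 21 (KMT5A), and they rose to 64 without KMT1 knockout pool 2 and to 103 without KMT5A knockout pool 2. The KMT1 difference fell to 41, 45, 52 and 50 without a wildtype pool (day 2, then day 3) and to 45 and 36 without a day 2 knockout pool. The KMT5A difference fell to 40, 38, 41 and 41 and to 50 and 39, and rose to 135 without KMT5A knockout pool 2 of day 3.

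In the comparisons of a day or of a knockout with wildtype, pools with the same number did not deviate together (correlations -0.046 to 0.028). Knockout groups were not set against each other. Whether pools with the same number share a clutch or batch was not tested otherwise. With the replicate block the counts were 606 for the day, 62 and 71 at day 2, 33 and 33 at day 3, and 72 and 79 for the difference between days. Over the 85 results for single named models, 1031 values under alternatives held 818 on the same side of the threshold, 204 that lost it and 9 that gained it. No value had the opposite sign where the main result or the alternative was called. Changes of sign where neither was called were not counted. With 2 pools a group, a lone pool left after leaving one out is assumed to vary like the other groups. The same holds for each knockout at day 3 without both libraries rich in ribosomal RNA.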
